A study of Homo sapiens with 8 samples.

Results

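The genes described here lie side by side in band q24.3 of chromosome 8, from LY6E to ZNF517 in the RefSeq annotation, near the end of the long arm. BOP1, the SLC genes and the ribosomal protein genes of the span were left out, which removed 6 genes and left 116. Of these, 67 had a probe on the array and 47 were measured, out of 12300 genes measured in all. A gene counted as measured if at least 1 of its probes had a detection p-value under 0.05 on at least 2 of the 7 arrays with scanner values. Of the 47, 45 are protein-coding, 1 is the long noncoding RNA MINCR and 1 is the microRNA gene MIR939. The members were thus selected on position and on detection p-values, and the stretch was proposed with changes in these arrays in view, so its medians and counts below describe it and are not tests of it.

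RNA came from 293T, a line of human embryonic kidney origin with the SV40 T antigen, and each culture expressed 1 short hairpin RNA. H1.2sh cells had a hairpin to deplete the linker histone H1.2, Cul4Ash cells one to deplete Cul4A and PAF1sh cells one to deplete PAF1, while control cells carried NCsh. Each of these 4 groups had 2 Illumina bead arrays. Whether the 2 arrays of a group stem from different cultures is not stated, and the p-values speak for the spread between arrays alone. Each target has 1 hairpin name in the labels.

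Linker histone H1 sits where DNA enters and leaves the nucleosome and helps chromatin to fold. Cul4A is the scaffold of a ubiquitin ligase that acts on chromatin and repair proteins, and PAF1 is a subunit of a complex that travels with RNA polymerase II and is needed for several histone modifications of transcribed genes. Band q24.3 is known as a gene-dense band of short, unrelated genes, many of them housekeeping genes, which belong to no common pathway.

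The targeted genes followed the labels. H1-2 stood at 8.05 and 8.05 (log2 intensity) in H1.2sh, against 9.24 and 9.07 in NCsh (-1.11 ± 0.09, SE, limma adjusted p = 4.37e-05). CUL4A had 6.91 and 6.88 in Cul4Ash, against 8.46 and 8.33 in NCsh (-1.51 ± 0.08, adjusted p = 6.93e-06), and PAF1 had 7.92 and 8.03 in PAF1sh, against 10.61 and 10.50 in NCsh (-2.58 ± 0.08, adjusted p = 5.72e-08). All 5 genes chosen as marks of the line (KRT8, KRT18, VIM, NEFM, INA) were detected on 7 of 7 scanner arrays. Of genes of other cell types, PTPRC, CD3E and PECAM1 were detected on 0 arrays and HBB on 2, while ALB was detected on 7. Median array intensities were 82.8 to 88.7, between 39.2% and 42.5% of probes were detected, and 2 arrays of a group correlated at 0.996 over log2 values. The scanner table holds values for 7 of the 8 arrays, with the PAF1sh-2 columns empty, and for 2 of the 7 its names disagree with the series matrix. The values under the scanner heading H1.2sh-2 are those of Cul4Ash replicate 2 in the series matrix, those under Cul4Ash-2 are those of PAF1sh replicate 2, and H1.2sh replicate 2 has no matching scanner column. Levels below come from the series matrix, which ties each column to a sample. The names match in both tables for 5 arrays, 1 of each depletion and 2 of NCsh. A fit on these 5 arrays alone thus has no replicate of any depletion.

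Most measured genes of the stretch lay a little above their NCsh level in each depletion. Of the 47, 6 passed the test with H1.2 depleted, 7 with Cul4A depleted and 22 with PAF1 depleted. More passed with PAF1 depleted among all 12300 genes too, where 10401, 9761 and 7516 did not pass in H1.2sh, Cul4Ash and PAF1sh. In H1.2sh, 39 of 47 had a log2 change above 0, with a median of 0.17, beside 48.7% and -0.01 over all genes tested. In Cul4Ash, 36 of 47 were above 0, with a median of 0.13, beside 49.7% and 0.00. In PAF1sh, 36 of 47 were above 0, with a median of 0.19, beside 50.7% and 0.00.

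A gene was called at a limma adjusted p under 0.05. In H1.2sh 5 members rose and 1 fell, beside 7.28% of all genes higher and 8.15% lower. In Cul4Ash 6 rose and 1 fell, beside 11% higher and 9.6% lower. In PAF1sh 16 rose and 6 fell, beside 19% higher and 19.9% lower. As shares of the 47 these are 10.6% and 2.13%, 12.8% and 2.13%, and 34% and 12.8%. With quantile normalization the share higher was therefore near or above that of all genes in each comparison with NCsh, and the share lower was below it.

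**Figure D1:**
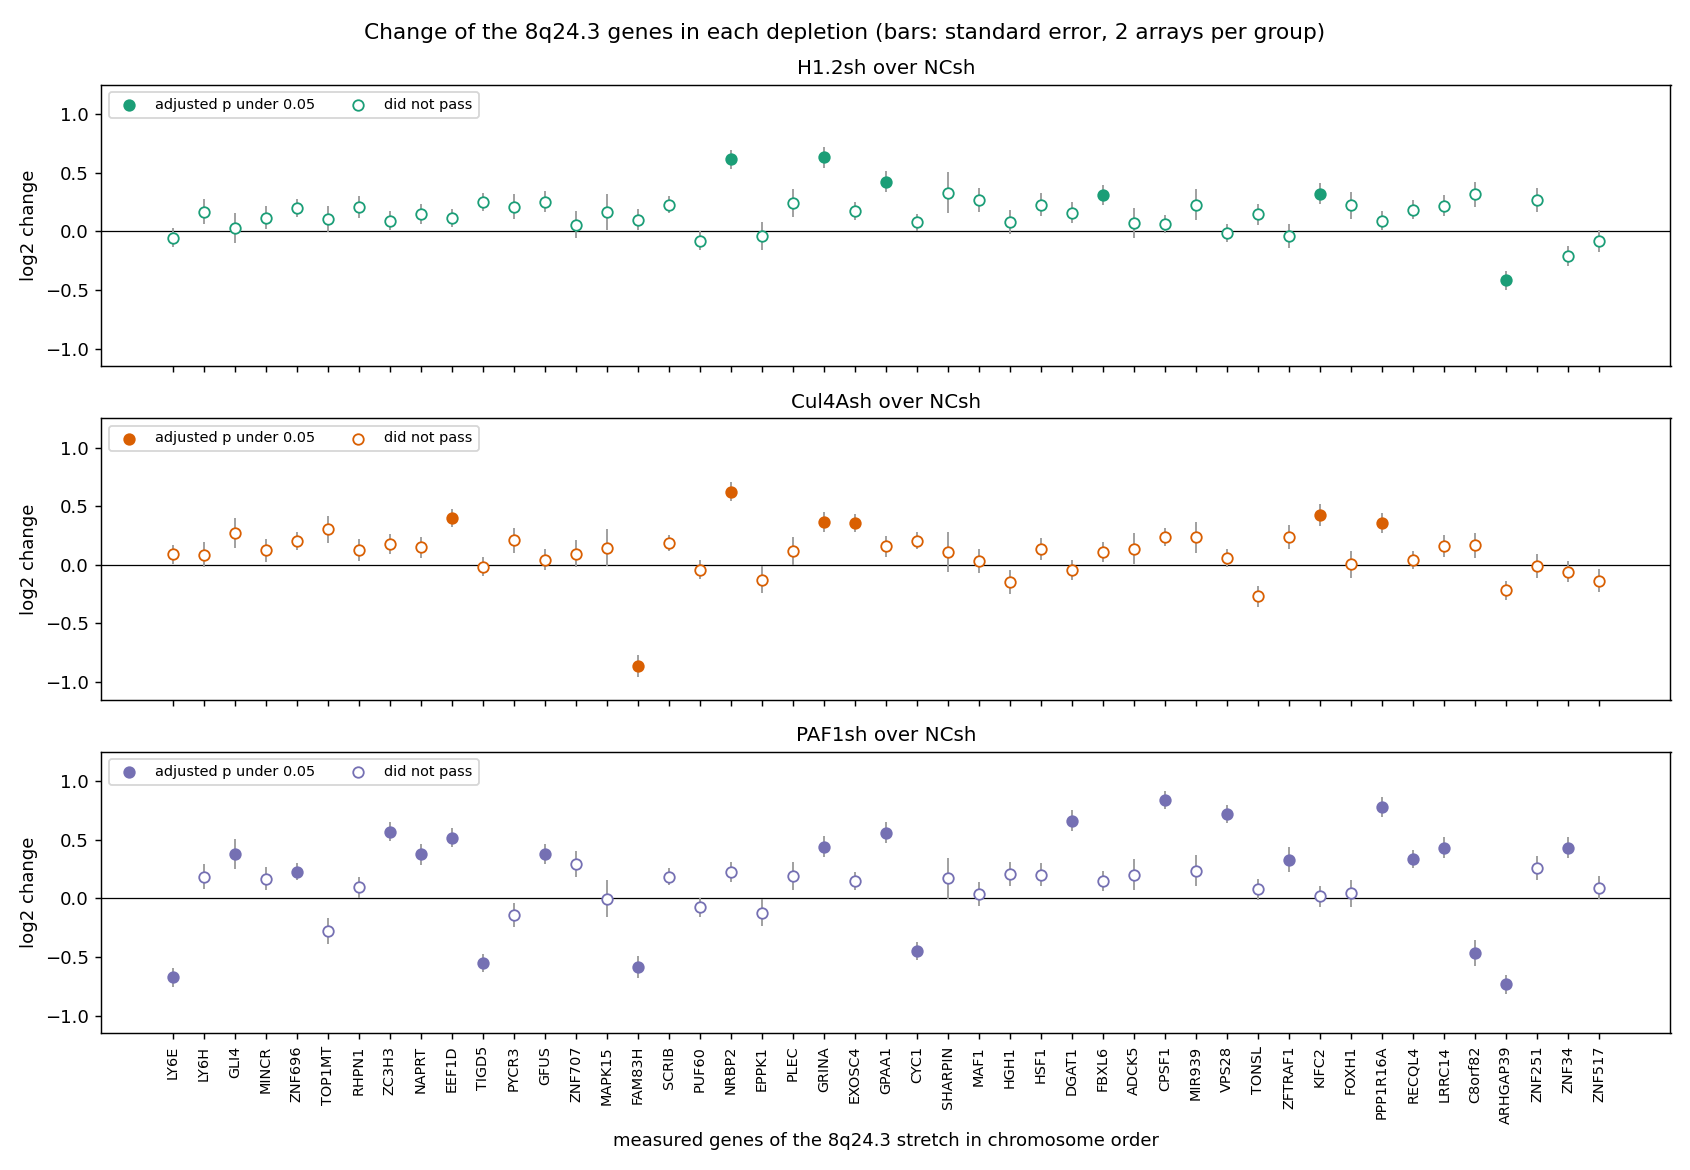
Log2 change against NCsh of the 47 measured genes in their order along the chromosome, for H1.2sh, Cul4Ash and PAF1sh. Points stand for genes, filled where the adjusted p was under 0.05, and bars for the standard error. Most points lie slightly above 0 in each panel, with medians of 0.17, 0.13 and 0.19, and the few genes well below 0 include FAM83H, ARHGAP39 and LY6E.

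The same picture showed in the arrays themselves. Both H1.2sh arrays lay above both NCsh arrays for 28 members and below them for 2, with 17 overlapping, while over all genes 28.7% lay above and 29.5% below. For Cul4Ash, 23 members lay above, 3 below and 21 overlapped, beside 30.8% and 30.1% of all genes. For PAF1sh, 27 lay above, 8 below and 12 overlapped, beside 34.2% and 33.4%. The median level of the 47 genes was 7.96 and 8.04 on the H1.2sh arrays, 7.79 and 7.88 on the Cul4Ash arrays, 7.75 and 7.87 on the PAF1sh arrays, and 7.74 and 7.68 on the NCsh arrays. Both NCsh arrays thus had the lowest medians after quantile normalization. Without it NCsh replicate 2 (7.83) lay above Cul4Ash replicate 1 (7.78) and PAF1sh replicate 1 (7.71). After it the gap between PAF1sh replicate 1 and NCsh replicate 1 was smaller than that between the 2 NCsh arrays. The 3 comparisons share the 2 NCsh arrays, so that a level particular to those arrays cannot be told apart from a change common to the depletions.

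The size of this shift depended on how arrays were scaled. With each array scaled to its median, the members' medians were 0.08 (H1.2sh), 0.06 (Cul4Ash) and 0.18 (PAF1sh), beside -0.07, -0.06 and -0.03 over all genes. Without normalization they were 0.06, 0.11 and 0.19, beside -0.09, -0.01 and -0.02. The members' median stayed above that of all genes under each of the 3 scalings. The calls did not all stay: median scaling gave 2 higher and 1 lower in H1.2sh, 1 and 1 in Cul4Ash, and 13 and 7 in PAF1sh, and without normalization the numbers were 2 and 1, 2 and 1, and 13 and 6. With median scaling the shares of all genes higher and lower were 2.15% and 9.74% in H1.2sh, 4.08% and 10.4% in Cul4Ash, and 12% and 18.3% in PAF1sh, beside 4.26% and 2.13%, 2.13% and 2.13%, and 27.7% and 14.9% of the members. Without normalization the shares of all genes were 1.63% and 9.87% in H1.2sh, 4.64% and 6.46% in Cul4Ash, and 11.5% and 16.8% in PAF1sh. Those of the members were 4.26% and 2.13%, 4.26% and 2.13%, and 27.7% and 12.8%. In Cul4Ash the members' share higher thus lay below that of all genes with median scaling and without normalization. Under both of these scalings GPAA1, FBXL6 and KIFC2 lost their calls in H1.2sh, EEF1D, GRINA, EXOSC4 and PPP1R16A in Cul4Ash, and ZNF696, NAPRT and RECQL4 in PAF1sh, and KIFC2 in Cul4Ash did so with median scaling.

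**Figure D2:**
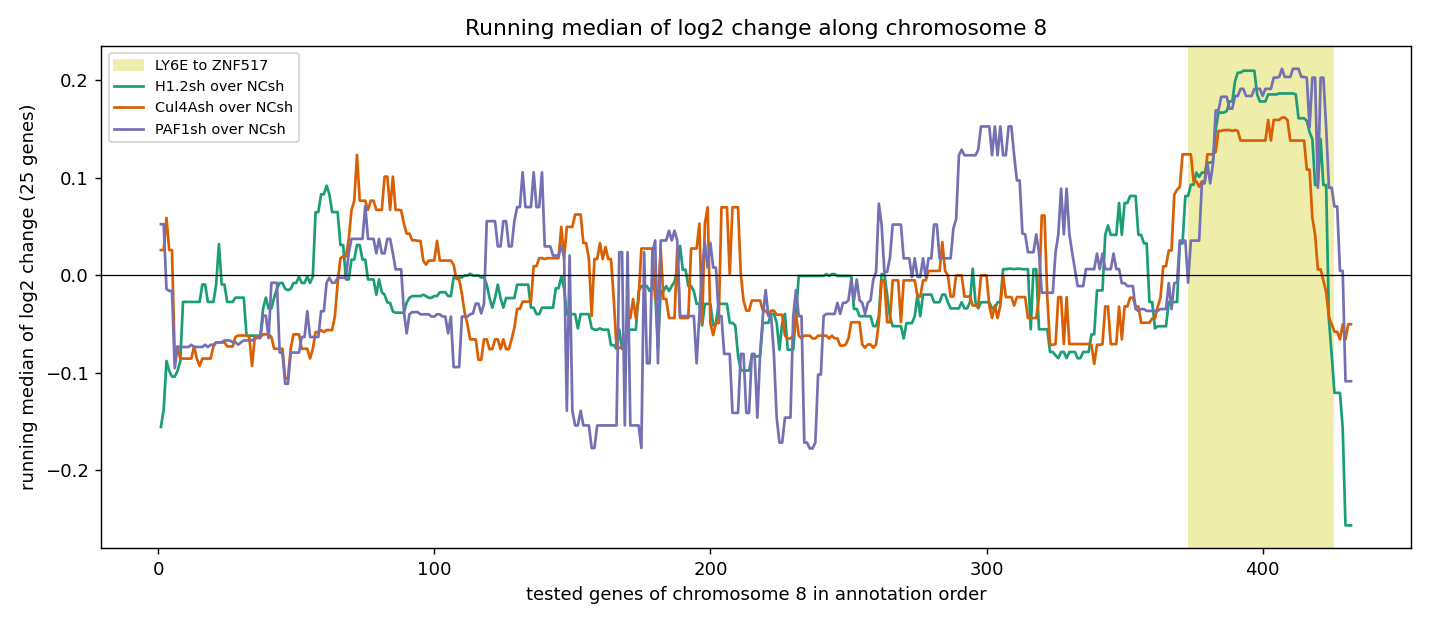
Running median of the log2 change against NCsh over 25 neighbouring measured genes of chromosome 8, by gene order, with the stretch marked. Within it the running median reached 0.21 (H1.2sh), 0.16 (Cul4Ash) and 0.21 (PAF1sh), and before it no higher than 0.09, 0.12 and 0.15. The lowest values within it, at its ends, were -0.08, -0.05 and 0.04.

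Along chromosome 8 the genes next to the stretch had medians near or below 0. The 50 measured genes nearest before LY6E had medians of -0.06, -0.05 and -0.01 for H1.2sh, Cul4Ash and PAF1sh. Of these 50, 5, 6 and 6 rose and 3, 5 and 12 fell. The 7 measured genes after ZNF517 had medians of -0.16, -0.05 and 0.00. The 5 measured genes of the span that were left out, BOP1 and the SLC and ribosomal protein genes among them, had medians of 0.19, 0.17 and -0.01. All 373 genes before LY6E had medians of -0.02, -0.04 and -0.02.

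Gene length differed between the stretch and its neighbours. Annotated gene length had a median of 9487 bases over the 47 members, 70476.5 bases over the 50 genes before LY6E and 27262.5 bases over all genes. Of the members, 25 fell in the shortest quartile of all genes, at most 10048 bases long. In that quartile the median change of all genes was 0.03 (H1.2sh), 0.04 (Cul4Ash) and 0.04 (PAF1sh), while the 25 members had medians of 0.21, 0.12 and 0.17. The longest quartile of all genes had medians of -0.04, -0.01 and -0.05. Levels were alike, with a median mean log2 intensity of 7.92 over the members and 7.90 over all genes. The part of gene length in the shift was not tested beyond these medians.

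Only GRINA, which encodes a multi-pass membrane protein of the TMBIM family, passed in all 3 comparisons with NCsh. On the log2 scale GRINA had 8.93 and 8.83 in H1.2sh, 8.66 and 8.57 in Cul4Ash, 8.59 and 8.79 in PAF1sh, and 8.23 and 8.26 in NCsh. All 6 depleted arrays lay above both control arrays. The changes were 0.63 ± 0.09 (adjusted p = 0.00117), 0.37 ± 0.09 (0.0163) and 0.44 ± 0.09 (0.0027), or 1.55-fold, 1.29-fold and 1.36-fold (n = 2 arrays per group, as throughout). Its second probe gave smaller changes of 0.31, 0.12 and 0.26. In Cul4Ash the call was lost without NCsh replicate 1, NCsh replicate 2 or Cul4Ash replicate 1 (lowest change 0.32, adjusted p up to 0.1). Among all genes tested, 4.38% passed in all 3 comparisons. Of the other members 7 passed in 2 comparisons, 18 in 1 and 21 in none, beside 14%, 33.7% and 47.8% of all genes.

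Counts by role group, here and below, are of few genes and were not tested against the shares of all genes. Those shares were 7.28% higher and 8.15% lower in H1.2sh, 11% and 9.6% in Cul4Ash, and 19% and 19.9% in PAF1sh. The cell surface and GPI-anchor genes had 4 measured members, with 2 that rose in H1.2sh, 1 that rose in Cul4Ash, and 2 that rose and 1 that fell in PAF1sh. These rises were those of GRINA and GPAA1, while the Ly6 surface genes LY6E and LY6H were not called higher. GPAA1, a subunit of the transamidase that attaches GPI anchors to proteins, had 8.78 and 8.61 in H1.2sh, 8.43 and 8.43 in Cul4Ash, 8.76 and 8.90 in PAF1sh, and 8.20 and 8.34 in NCsh. Every depleted array was above both controls, least so in Cul4Ash. It rose by 0.43 ± 0.09 in H1.2sh (adjusted p = 0.0116) and by 0.56 ± 0.09 in PAF1sh (0.00075), and its change in Cul4Ash was 0.16 ± 0.09 (0.243).

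LY6E, a GPI-anchored surface protein of the Ly6 family and the first gene of the stretch, went the other way. Its levels were 10.10 and 9.98 in H1.2sh, 10.21 and 10.15 in Cul4Ash, 9.38 and 9.45 in PAF1sh, and 10.05 and 10.13 in NCsh. The PAF1sh arrays lay apart below the other 6. LY6E fell by 0.68 on the log2 scale in PAF1sh (SE 0.08, 1.6-fold lower, adjusted p = 0.000107), with changes of -0.05 in H1.2sh (95% interval -0.23 to 0.12) and 0.09 in Cul4Ash (-0.09 to 0.27). LY6H, its neighbour of the same family, was detected on only 2 scanner arrays and passed nowhere.

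**Figure D3:**
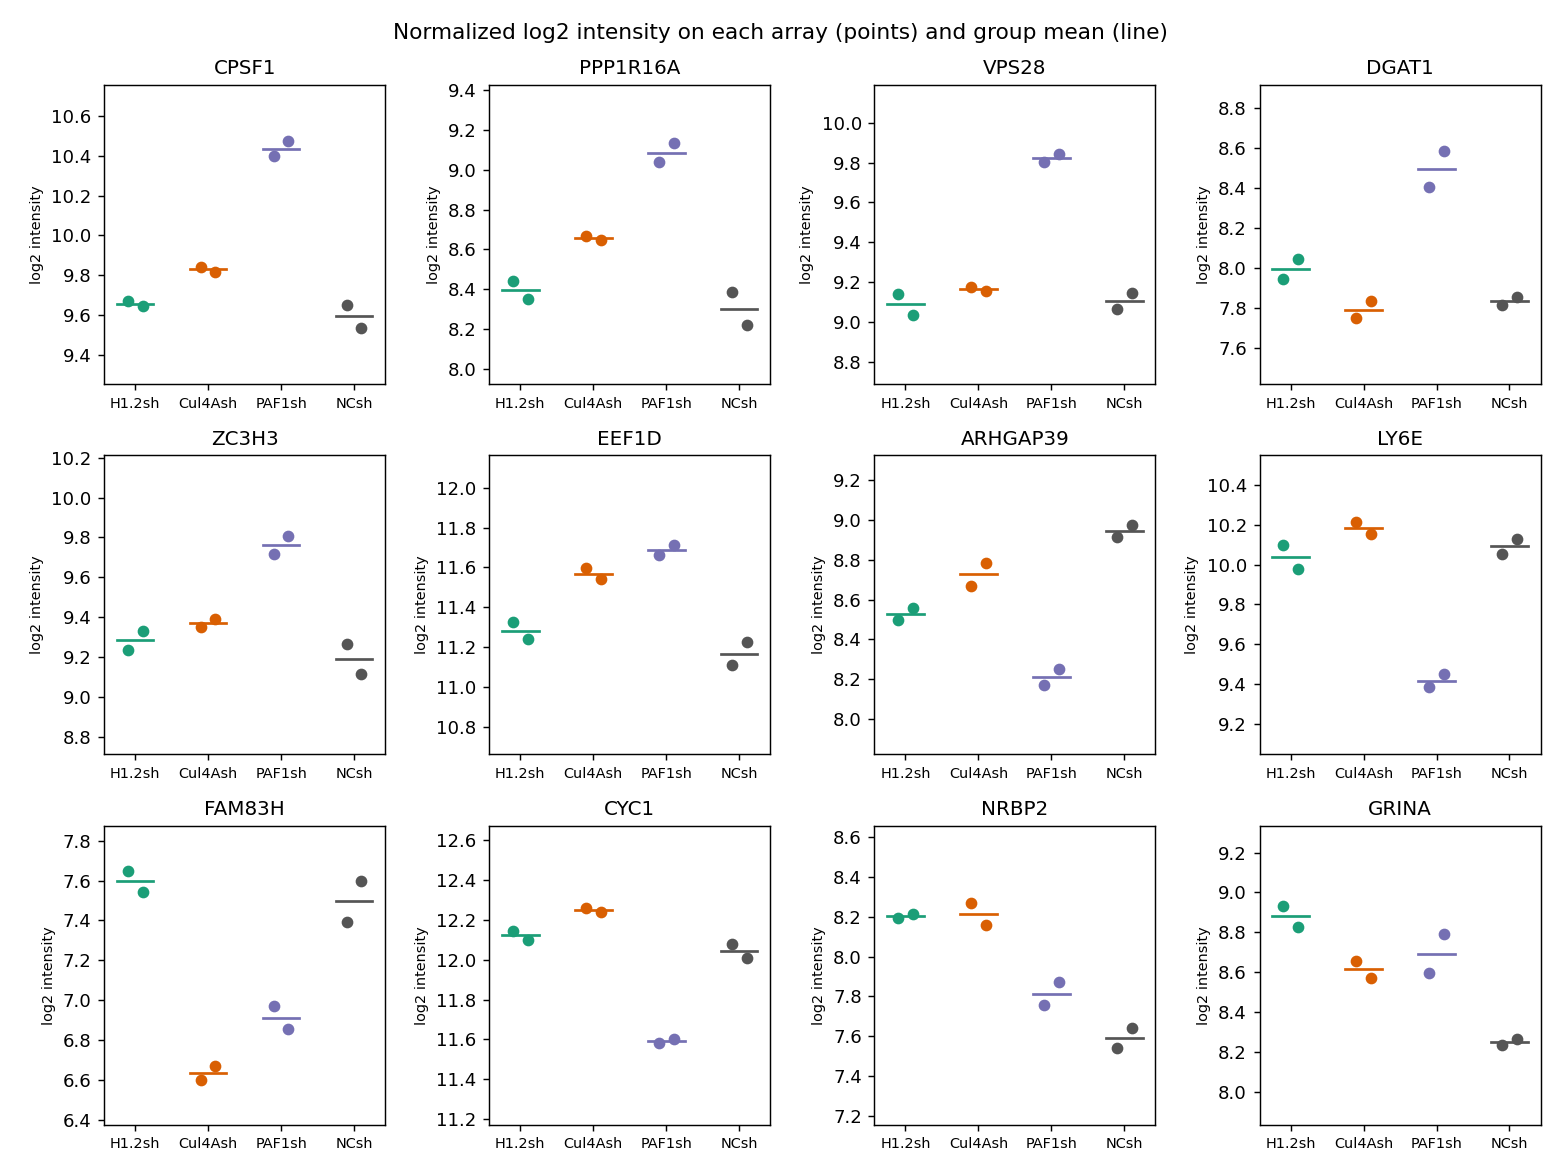
Log2 intensity of 12 members on each of the 8 arrays, after quantile normalization, with groups in the order H1.2sh, Cul4Ash, PAF1sh and NCsh. Points are arrays and short lines group means. CPSF1, PPP1R16A, VPS28, DGAT1, ZC3H3 and EEF1D are highest in PAF1sh, FAM83H is lowest in Cul4Ash, and GRINA lies above NCsh in all 3 depletions.

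RNA processing and translation had 6 measured members, none of which passed in H1.2sh, while 2 rose in Cul4Ash and 3 in PAF1sh. CPSF1, the large subunit of the complex that recognises the polyadenylation signal, had 9.67 and 9.64 in H1.2sh, 9.84 and 9.82 in Cul4Ash, 10.40 and 10.47 in PAF1sh, and 9.65 and 9.54 in NCsh. The PAF1sh arrays were the highest by a wide gap. CPSF1 rose by 0.84 ± 0.08 in PAF1sh (1.79-fold, adjusted p = 2.21e-05), the largest rise among the 47 in the 3 comparisons, and its change in Cul4Ash was 0.24 ± 0.08 (adjusted p = 0.0539).

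ZC3H3, a zinc finger protein of polyadenylation and mRNA export, had 9.24 and 9.33 in H1.2sh, 9.35 and 9.39 in Cul4Ash, 9.72 and 9.81 in PAF1sh, and 9.27 and 9.12 in NCsh. Here too only the PAF1sh arrays stood clearly above the rest (0.57 ± 0.08, adjusted p = 0.000416). EEF1D, a subunit of the exchange factor that recharges translation elongation factor eEF1A, had 11.32 and 11.24 in H1.2sh, 11.60 and 11.54 in Cul4Ash, 11.66 and 11.71 in PAF1sh, and 11.11 and 11.23 in NCsh. All depleted arrays lay above the controls, H1.2sh only just. EEF1D rose by 0.40 ± 0.08 in Cul4Ash (adjusted p = 0.00601) and by 0.52 ± 0.08 in PAF1sh (0.000529), and its second bright probe gave 0.48 and 0.44.

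EXOSC4, a core subunit of the RNA exosome, had 9.20 and 9.16 in H1.2sh, 9.34 and 9.37 in Cul4Ash, 9.22 and 9.09 in PAF1sh, and 9.02 and 8.99 in NCsh. It was highest in Cul4Ash and lowest in NCsh, and rose in Cul4Ash (0.35 ± 0.08, adjusted p = 0.00984), with changes of 0.18 in H1.2sh and 0.15 in PAF1sh that did not pass. The splicing factor PUF60, the brightest member, was level, with 12.36 and 12.27 in H1.2sh, 12.39 and 12.32 in Cul4Ash, 12.29 and 12.34 in PAF1sh, and 12.45 and 12.33 in NCsh. Each depletion overlapped with NCsh, and its 95% intervals were -0.26 to 0.10 for H1.2sh, -0.22 to 0.14 for Cul4Ash and -0.26 to 0.10 for PAF1sh.

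Of the 3 measured genes of DNA replication and repair, 1 passed against NCsh. RECQL4, a DNA helicase of the RecQ family, rose by 0.34 ± 0.08 in PAF1sh (adjusted p = 0.00668), with changes of 0.19 in H1.2sh and 0.04 in Cul4Ash. TOP1MT, the mitochondrial DNA topoisomerase, had 9.34 and 9.12 in H1.2sh, 9.41 and 9.44 in Cul4Ash, 8.74 and 8.95 in PAF1sh, and 8.99 and 9.26 in NCsh. It was lowest in PAF1sh and highest in Cul4Ash, and neither passed (-0.28 ± 0.11 and 0.30 ± 0.11, adjusted p = 0.0788 and 0.0875). With median scaling it passed in PAF1sh (-0.34, adjusted p = 0.0354). The probes of TOP1MT disagree in PAF1sh, where the 2 dimmer ones, also detected on 7 scanner arrays, gave -0.11 and 0.01. In Cul4Ash those 2 gave 0.39 each, in the same direction as the main probe.

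TONSL, which takes part in the repair of stalled replication forks, had 7.03 and 6.91 in H1.2sh, 6.50 and 6.61 in Cul4Ash, 6.82 and 6.98 in PAF1sh, and 6.77 and 6.88 in NCsh. The Cul4Ash arrays lay below all others, at -0.27 ± 0.09 from NCsh (adjusted p = 0.0601). Of the 7 scanner arrays it was not detected on Cul4Ash replicate 1 and was detected on the other 6, among them the one whose values match Cul4Ash replicate 2. TONSL was 0.41 ± 0.09 higher in H1.2sh than in Cul4Ash (1.33-fold, adjusted p = 0.00888).

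The cytoskeleton, polarity and motor genes had 8 measured members and moved in both directions: 1 rose and 1 fell in H1.2sh, 2 rose and 1 fell in Cul4Ash, and 1 rose and 2 fell in PAF1sh. PPP1R16A, a regulatory subunit of protein phosphatase 1, had 8.44 and 8.35 in H1.2sh, 8.67 and 8.65 in Cul4Ash, 9.04 and 9.13 in PAF1sh, and 8.39 and 8.22 in NCsh. Its levels stood in the order PAF1sh, Cul4Ash, then H1.2sh and NCsh, which overlapped. It rose by 0.36 ± 0.08 in Cul4Ash (adjusted p = 0.0152) and by 0.78 ± 0.08 in PAF1sh (6.45e-05). KIFC2, a kinesin motor, had 7.96 and 8.02 in H1.2sh, 8.16 and 8.02 in Cul4Ash, 7.61 and 7.76 in PAF1sh, and 7.74 and 7.59 in NCsh. The H1.2sh and Cul4Ash arrays lay above the others, and it rose by 0.32 ± 0.09 (adjusted p = 0.0385) and 0.43 ± 0.09 (0.00876) there.

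FAM83H, a protein that organises keratin filaments, had 7.65 and 7.54 in H1.2sh, 6.60 and 6.67 in Cul4Ash, 6.97 and 6.85 in PAF1sh, and 7.39 and 7.60 in NCsh. The Cul4Ash arrays were the lowest, the PAF1sh arrays came next, and H1.2sh and NCsh overlapped. FAM83H fell by 0.86 on the log2 scale in Cul4Ash (SE 0.09, 1.82-fold lower, adjusted p = 0.000166) and by 0.58 in PAF1sh (SE 0.09, 0.00066), against 0.10 ± 0.09 in H1.2sh.

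ARHGAP39, a GTPase-activating protein, was the other member that fell in a pair of comparisons. It had 8.50 and 8.56 in H1.2sh, 8.67 and 8.78 in Cul4Ash, 8.17 and 8.25 in PAF1sh, and 8.91 and 8.98 in NCsh. The 4 groups did not overlap, with NCsh highest and PAF1sh lowest. Its changes were -0.42 ± 0.08 in H1.2sh (adjusted p = 0.00701), -0.22 ± 0.08 in Cul4Ash (0.0774) and -0.73 ± 0.08 in PAF1sh (6.34e-05). The polarity scaffold SCRIB, the brightest of this group, had 10.24 and 10.24 in H1.2sh, 10.17 and 10.23 in Cul4Ash, 10.19 and 10.20 in PAF1sh, and 10.00 and 10.03 in NCsh. All depleted arrays lay above NCsh by a near equal amount, yet 0.23, 0.19 and 0.18 did not pass (adjusted p = 0.059, 0.0949 and 0.0674). Its dimmer probes differed from this. The one detected on 4 scanner arrays gave 0.36, 0.13 and 0.14, and the one detected on 3 gave -0.18, 0.01 and -0.05.

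Metabolic and mitochondrial genes had 7 measured members, none of which passed in H1.2sh or Cul4Ash, while 3 rose and 2 fell in PAF1sh. DGAT1, which makes triglyceride from diacylglycerol, had 7.95 and 8.04 in H1.2sh, 7.75 and 7.83 in Cul4Ash, 8.41 and 8.59 in PAF1sh, and 7.81 and 7.85 in NCsh. The PAF1sh arrays stood above all others (0.66 ± 0.09, 1.58-fold, adjusted p = 0.000199). GFUS, which makes GDP-fucose, and NAPRT, of nicotinic acid salvage into NAD, rose in PAF1sh by 0.38 ± 0.09 each (adjusted p = 0.00584 and 0.00666).

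CYC1, cytochrome c1 of respiratory complex III, had 12.14 and 12.10 in H1.2sh, 12.26 and 12.24 in Cul4Ash, 11.58 and 11.60 in PAF1sh, and 12.08 and 12.01 in NCsh. Its PAF1sh arrays were far below the other 6, which lay within a narrow band (-0.45 ± 0.07, 1.37-fold lower, adjusted p = 0.000776). C8orf82, placed in this group but with a function not described here, had 8.04 and 7.79 in H1.2sh, 7.79 and 7.74 in Cul4Ash, 7.24 and 7.02 in PAF1sh, and 7.51 and 7.68 in NCsh. H1.2sh and Cul4Ash lay above NCsh and PAF1sh lay below it. The change in PAF1sh was -0.47 ± 0.11 (adjusted p = 0.00631), and that in H1.2sh was 0.32 ± 0.11 (0.0761).

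Genes of ubiquitin, sorting, kinases and cell death had 7 measured members, of which 2 rose in H1.2sh, 1 rose in Cul4Ash, 3 rose in PAF1sh and none fell. NRBP2, a pseudokinase, had 8.19 and 8.21 in H1.2sh, 8.27 and 8.16 in Cul4Ash, 7.75 and 7.87 in PAF1sh, and 7.54 and 7.64 in NCsh. The H1.2sh and Cul4Ash arrays were the highest and PAF1sh lay between them and NCsh. NRBP2 rose by 0.61 ± 0.08 in H1.2sh (1.53-fold, adjusted p = 0.000845) and by 0.62 ± 0.08 in Cul4Ash (1.54-fold, 0.000611), and its change in PAF1sh was 0.22 ± 0.08 (0.0532).

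VPS28, a subunit of the ESCRT-I complex that sorts ubiquitylated cargo into multivesicular bodies, had 9.14 and 9.04 in H1.2sh, 9.18 and 9.15 in Cul4Ash, 9.80 and 9.84 in PAF1sh, and 9.07 and 9.15 in NCsh. Its PAF1sh arrays lay apart above the other 6. VPS28 rose by 0.72 ± 0.08 in PAF1sh (1.64-fold, adjusted p = 6.04e-05), and its second probe gave 0.68. FBXL6, an F-box protein of a ubiquitin ligase family, had 8.15 and 8.11 in H1.2sh, 7.94 and 7.92 in Cul4Ash, 7.87 and 8.08 in PAF1sh, and 7.84 and 7.80 in NCsh. All depleted arrays lay above NCsh, and it passed in H1.2sh (0.31 ± 0.09, adjusted p = 0.0356). LRRC14, a leucine-rich repeat protein and the brightest of the group, had 9.64 and 9.54 in H1.2sh, 9.49 and 9.57 in Cul4Ash, 9.82 and 9.78 in PAF1sh, and 9.48 and 9.26 in NCsh. The depleted arrays lay above both controls, and the gene rose in PAF1sh (0.43 ± 0.09, adjusted p = 0.00352). ZFTRAF1 rose in PAF1sh as well, by 0.33 ± 0.11 (0.03).

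Transcription factor and zinc finger genes were the largest group, with 10 measured members, of which 3 rose and 1 fell in PAF1sh and 0 passed in H1.2sh or Cul4Ash. The zinc finger genes ZNF34, GLI4 and ZNF696 rose by 0.43 ± 0.09, 0.38 ± 0.13 and 0.23 ± 0.07 (adjusted p = 0.0032, 0.0371 and 0.0337). ZNF696 had changes of 0.20 in H1.2sh and 0.21 in Cul4Ash that did not pass, and its differences from PAF1sh were -0.03 and -0.02 (adjusted p = 0.793 and 0.845). GLI4 differed between Cul4Ash and PAF1sh by -0.10 ± 0.13 (adjusted p = 0.553), while ZNF34 was lower than in PAF1sh in both H1.2sh (-0.64 ± 0.09, adjusted p = 0.000289) and Cul4Ash (-0.49 ± 0.09, 0.00144). TIGD5, derived from a transposase, had 10.19 and 10.20 in H1.2sh, 9.97 and 9.89 in Cul4Ash, 9.34 and 9.45 in PAF1sh, and 9.91 and 9.98 in NCsh. PAF1sh was lowest and H1.2sh highest, with Cul4Ash and NCsh overlapping. Its change was -0.55 ± 0.08 in PAF1sh (adjusted p = 0.000343) and 0.25 ± 0.08 in H1.2sh (0.0564). HSF1, the master regulator of the heat shock response, had changes of 0.23, 0.14 and 0.20. MAF1, a repressor of RNA polymerase III, had changes of 0.26, 0.03 and 0.04. None of these passed (adjusted p from 0.111 to 0.844). The HSF1 probe was dim (mean log2 intensity 6.44) and detected on 4 of 7 scanner arrays, while that of MAF1 was detected on all 7.

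ZNF517, the last gene of the stretch, was dim, with 6.62 and 6.47 in H1.2sh, 6.44 and 6.54 in Cul4Ash, 6.75 and 6.68 in PAF1sh, and 6.74 and 6.51 in NCsh, and every depletion overlapped with NCsh. MINCR, a long noncoding RNA named for its induction by MYC, had 6.50 and 6.61 in H1.2sh, 6.60 and 6.52 in Cul4Ash, 6.67 and 6.54 in PAF1sh, and 6.56 and 6.32 in NCsh. Its groups overlapped too. MINCR, LY6H, EPPK1 and HGH1 were detected on exactly 2 scanner arrays and so lay just inside the detection rule, while LY6S-AS1, MAFA-AS1, ZNF623, LINC02878 and SCRT1 were detected on 1 and lay just outside it. A further 15 genes with a probe, GSDMD, PARP10 and OPLAH among them, were detected on 0. Of the measured members, 35 were detected on all 7 scanner arrays. Annotated spans overlap for TIGD5 and PYCR3, HSF1 and DGAT1, ADCK5 and CPSF1, and KIFC2 and FOXH1, and MIR939 lies inside CPSF1, so signal at such a pair may not belong to 1 gene alone.

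**Figure D4:**
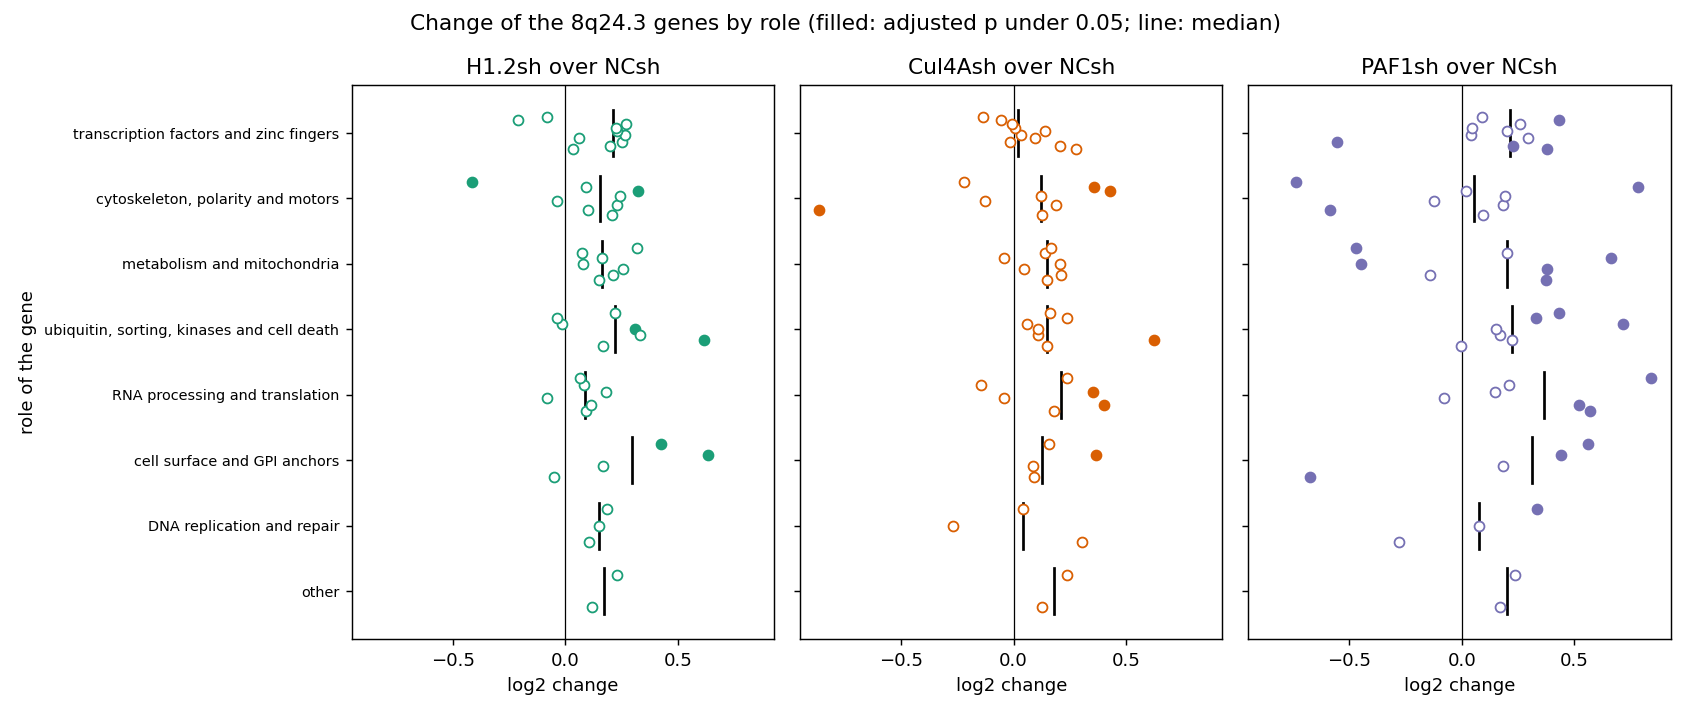
Log2 change against NCsh of each measured member, by role group, for H1.2sh, Cul4Ash and PAF1sh. Filled points passed the test and open points did not. The filled points of the metabolic and zinc finger genes lie in the PAF1sh panel, and the cytoskeletal genes have filled points on both sides of 0 in each depletion.

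The depletions were also set against each other. The members' median difference was 0.02 for H1.2sh minus Cul4Ash, 0.01 for H1.2sh minus PAF1sh and -0.07 for Cul4Ash minus PAF1sh, beside 0.00 over all genes in each. The first of these was -0.03 without normalization, and the second was -0.01 with median scaling and -0.04 without normalization. Between H1.2sh and Cul4Ash, 3 members were higher and 2 lower in H1.2sh, beside 10.2% and 12.4% of all genes, so that the members' shares of 6.38% and 4.26% were below those of all genes. FAM83H led, 0.96 ± 0.09 higher in H1.2sh (adjusted p = 7.58e-05), followed by TONSL above, while EEF1D and PPP1R16A were lower in H1.2sh (-0.29 ± 0.08 and -0.26 ± 0.08, adjusted p = 0.027 and 0.0477). FAM83H passed without each single array and the others did not: EEF1D, TIGD5 and PPP1R16A lost their calls without any 1 of the 4 arrays compared (adjusted p up to 0.157, 0.163 and 0.225), PPP1R16A also without either PAF1sh array, and TONSL without H1.2sh replicate 1 or Cul4Ash replicate 1 (up to 0.0678). EEF1D, TIGD5 and PPP1R16A did not pass under either other scaling, nor TONSL without normalization.

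Against PAF1sh more genes were called, among the members as among all genes. In H1.2sh, 10 members were higher and 8 lower than in PAF1sh, beside 19.8% and 20.4% of all genes. TIGD5 and C8orf82 were higher in H1.2sh (0.80 ± 0.08 and 0.78 ± 0.11, adjusted p = 3.19e-05 and 0.000289), and CPSF1 and VPS28 were lower (-0.78 ± 0.08 and -0.73 ± 0.08, adjusted p = 3.44e-05 and 4.87e-05). In Cul4Ash, 9 were higher and 13 lower than in PAF1sh, beside 21.2% and 19.8%. As shares of the 47 these are 21.3% and 17%, and 19.1% and 27.7%. LY6E and CYC1 were higher in Cul4Ash (0.77 ± 0.08 and 0.66 ± 0.07, adjusted p = 4.81e-05 and 7.22e-05), and DGAT1 and VPS28 were lower (-0.71 ± 0.09 and -0.66 ± 0.08, adjusted p = 0.000124 and 9.81e-05). These differences hold no NCsh array, and each of the 8 named differences passed without each single array. TONSL was lower in Cul4Ash than in PAF1sh (-0.35 ± 0.09, adjusted p = 0.0109), but did not pass without normalization. Its call was also lost without Cul4Ash replicate 1, where the difference was -0.3, and without PAF1sh replicate 2, where the difference was -0.26. HGH1 was not detected on Cul4Ash replicate 1 nor on the scanner array that matches Cul4Ash replicate 2. Both of its detections were on scanner arrays of PAF1sh, 1 of them under the scanner heading Cul4Ash-2. HGH1 thus entered the detection filter only through the group where it was higher. Its 1.28-fold lower level in Cul4Ash (-0.36, interval -0.59 to -0.13) is therefore no test, although it is counted among the 13 lower. Without H1.2sh replicate 1 the other of 2 HGH1 probes of near equal level was the brighter one, and the difference was -0.02.

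Some calls against NCsh also rested on single arrays. In H1.2sh, NRBP2 and GRINA passed without each array, while GPAA1 did not without NCsh replicate 1 or H1.2sh replicate 1 (adjusted p up to 0.102), ARHGAP39 not without H1.2sh replicate 1 (0.0613), and FBXL6 and KIFC2 not without any 1 of the 4 arrays (up to 0.169 and 0.192). In Cul4Ash, FAM83H and NRBP2 passed without each array. There EEF1D lost its call without NCsh replicate 1 (0.0527), EXOSC4 without Cul4Ash replicate 2 (0.0539), KIFC2 without Cul4Ash replicate 1 or NCsh replicate 2 (up to 0.0698), and PPP1R16A without either Cul4Ash array or NCsh replicate 2 (up to 0.0962). In PAF1sh, 16 of 22 calls held without each array. GLI4 was at 0.15 without NCsh replicate 1 (adjusted p = 0.286) and lost its call without either PAF1sh array, ZFTRAF1 was at 0.20 without PAF1sh replicate 2 (0.213) and lost its call without either NCsh array, and C8orf82 was at -0.35 without PAF1sh replicate 2 (0.0591) and lost its call without NCsh replicate 2. NAPRT without PAF1sh replicate 1 (0.0505), RECQL4 without NCsh replicate 1 (0.055) and ZNF696 without any 1 array of H1.2sh, PAF1sh or NCsh (up to 0.111) did not pass either. Without the detection filter FBXL6 and KIFC2 in H1.2sh, and GLI4, ZNF696 and ZFTRAF1 in PAF1sh, did not pass.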

How the data were processed

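The genes and role groups were chosen with earlier results of these data known. Total RNA of 293T cells was labelled as biotinylated cRNA, per the labels' protocols. The authors deposited a series matrix of linear intensity for 8 arrays, and a scanner table of bead signal, read here as intensity, with a detection p-value for 7; 2 of its per-sample columns were not used. The software and build were not given in the sources consulted. The values before log2 were linear as the authors deposited them.

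The matrix was put on the log2 scale, with quantile normalization between arrays. Probes with a detection p-value under 0.05 on 2 scanner arrays were kept (22131). The brightest probe stood for each of 12300 genes. lmFit and eBayes of limma 3.58.1 (R 4.3.3) fitted 4 group means over 8 arrays, with 4 residual and 6.19 prior degrees of freedom. Benjamini-Hochberg adjustment ran over all genes. Errors after ± are standard errors, and intervals are 95%. Gene order and length came from RefSeq GRCh38.p14, with no coordinates printed. Values on every array are given for members passing in all 3 comparisons with NCsh, the 8 with the largest change in each, the 4 largest between depletions, the brightest of each role group and the first and last gene. After quantile normalization replicate numbers did not pair arrays (correlation of replicate differences between groups -0.13 to 0.11). Before it the members' median was higher on replicate 2 than on replicate 1 in all 4 groups. It was 7.85 and 7.98 in H1.2sh, 7.78 and 7.94 in Cul4Ash, 7.71 and 7.94 in PAF1sh, and 7.68 and 7.83 in NCsh. The number of arrays limits the precision. Tried as alternatives were median scaling, no normalization, no filter, detection on every scanner array, the mean of a gene's probes, a replicate block, an intensity trend, neqc on 5 arrays and leaving out each array.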

Additional observations from a re-analysis of the deposited data

How the results depend on the processing

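Counts are of members higher or lower at a limma adjusted p under 0.05, and 0 called changes of named genes turned direction. The members' median change stayed above 0 in each comparison with NCsh under every alternative run, while their median differences between depletions, all near 0, turned sign under some. Against NCsh, the members higher in H1.2sh numbered 5, but 2 with median scaling, 2 without normalization, 3 without the detection filter, 9 when detection on every scanner array was required, 3 with the replicate block and 8 with an intensity trend. Those higher in Cul4Ash numbered 6, but 1 with median scaling, 2 without normalization and 10 with the trend, and with detection on every array 2 were lower. H1.2sh against Cul4Ash, with 3 higher and 2 lower, had 0 lower with median scaling, 1 higher and 0 lower without normalization, 0 lower without the filter, 1 lower with the replicate block and 5 higher with the trend. Without normalization 5 were higher in H1.2sh than in PAF1sh and 7 lower in Cul4Ash than in PAF1sh. With neqc on the 5 undisputed arrays, where each depletion has 1 array, fewer members and fewer of all genes were called in every comparison. No member was called against NCsh in H1.2sh or Cul4Ash, and in PAF1sh those higher no longer outnumbered those lower. Matrix values of those 5 arrays, added after seeing the data, gave 0 lower in H1.2sh, 0 lower for H1.2sh against Cul4Ash and 5 lower for Cul4Ash against PAF1sh. Where 1 array remains in a group it is assumed to vary like the others. Leaving out each array gave 2 to 5 higher and 0 to 1 lower in H1.2sh, 3 to 6 and 1 in Cul4Ash, 13 to 17 and 5 to 7 in PAF1sh, 1 to 4 and 0 to 2 for H1.2sh against Cul4Ash, 6 to 11 and 7 to 9 for H1.2sh against PAF1sh, and 8 to 9 and 8 to 14 for Cul4Ash against PAF1sh. The replicate block moved no other count past 1.5 times; with it FBXL6 and KIFC2 did not pass in H1.2sh, nor TIGD5 and PPP1R16A between H1.2sh and Cul4Ash. The causes of these differences were not tested. No background was subtracted here before log2 in the main fit. Changes of dim members near the detection threshold may therefore be compressed, which was not tested.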
